A study of Mus musculus with 6 samples.

Results

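The SLAM family receptor genes Slamf1, Slamf6, Slamf7, Cd244a, Ly9 and Cd84, the ligand gene Cd48 and the SH2-domain adaptor genes Sh2d1a and Sh2d2a were examined in mouse splenic γδ T cells. They were taken by gene symbol. All 9 had a row among the 19390 gene symbols of the deposited table, and all 9 had enough counts to be among the 12810 tested genes. Messenger RNA had been sequenced from flow-sorted spleen γδ T cells of mice 6 weeks old; these lymphocytes carry a γδ in place of an αβ antigen receptor. The KO-labelled libraries (n = 3) were taken as Usf3 f/f with CD2-cre, which drives Cre in lymphoid cells, and the WT-labelled libraries (n = 3) as Usf3 f/f without it. Both labels thus carry the floxed Usf3 alleles, and CD2-cre and the deletion cannot be told apart, since Cre was in KO-labelled mice alone. CD2-cre acts across the lymphoid lineage, so the deletion is not limited to γδ T cells. The sources used here give no strain, sex or pooling of animals.

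SLAM receptors are surface glycoproteins of the immunoglobulin superfamily. Most bind their own kind on a neighbouring cell, while CD244 binds CD48, which is anchored in the membrane without a cytoplasmic tail. Tyrosine motifs in the receptor tails recruit the adaptor SAP, the product of Sh2d1a, which brings in the kinase Fyn; in the absence of SAP the same motifs can recruit inhibitory phosphatases. The pathway is known for its part in the development of innate-like lymphocytes such as NKT cells and subsets of γδ T cells, and in contacts of killer lymphocytes with their targets.

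The 6 libraries held between 34644862 and 35806402 counts. Usf3, the targeted gene, was at 72.0, 65.9 and 67.5 CPM (counts relative to the scaled library total) in KO-labelled replicates 1, 2 and 3, against 70.2, 72.7 and 73.8 CPM in WT-labelled ones, and did not pass the test (edgeR adjusted p = 0.261). Since the floxed exons are not named, this whole-gene value is no check of the labels, by which the libraries are called here. The T cell genes Cd3d, Cd3e, Cd3g, Cd247, Cd28 and Thy1 summed to 2781 to 2866 CPM in KO-labelled and 2934 to 2954 CPM in WT-labelled libraries. Of these, Cd3d, Cd3e and Cd3g were lower in KO-labelled libraries, with log2 fold changes of -0.12, -0.076 and -0.17 (edgeR adjusted p = 0.00287, 0.0364 and 5.91e-05). Cd247, Cd28 and Thy1 did not pass. The γδ and αβ antigen receptor constant genes looked for had no row under the symbols used, so the γδ identity rests on the sort. Cd4 was at 0.463 ± 0.106 CPM in KO-labelled and 0.522 ± 0.230 CPM in WT-labelled libraries (SD, n = 3 each). Summed over 40 marker genes of B cells, NK cells, myeloid cells, mast cells, red cells and platelets, the level was 108 to 114 CPM in KO-labelled and 113 to 118 CPM in WT-labelled libraries.

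The SLAM receptors did not move as a block. Slamf1, Slamf7 and Cd244a were lower in KO-labelled cells, Cd84 was higher, and the ligand gene Cd48 was lower. Sh2d2a was slightly higher, and Slamf6, Ly9 and Sh2d1a did not pass the test. In all, 6 of 9 members passed an adjusted p under 0.05, 4 lower and 2 higher, where 17.3% of all tested genes passed, 10.1% lower and 7.23% higher (edgeR quasi-likelihood, Benjamini-Hochberg adjustment over all tested genes). At an adjusted p under 0.01, 4 members were lower and 1 higher, where 10.8% of all tested genes passed, 6.74% lower and 4.06% higher. The same 5 members also passed 0.05 with a change of at least 1.2-fold, as 8.04% of all tested genes did. Calls depend on level: among tested genes with a mean of at least 30 CPM 24.3% passed, and 5 of the 7 members at that level. The median log2 fold change of the 9 members was -0.053, against 0.0014 over all tested genes. RNA of a whole sorted population was measured, so fewer cells carrying a transcript and less transcript per cell cannot be told apart.

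**Figure D1:**
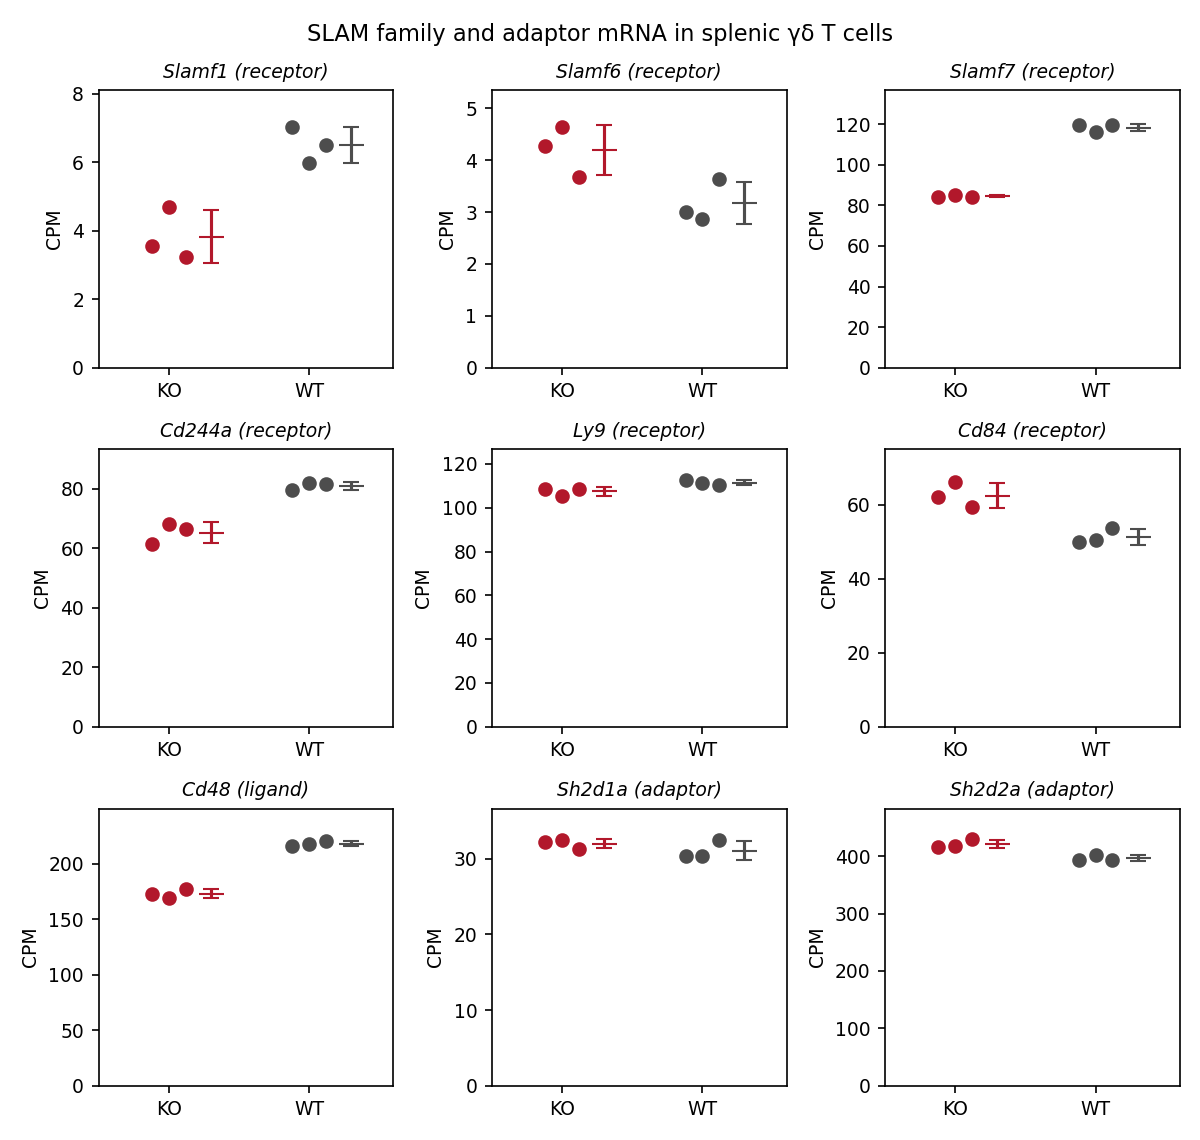
Levels of the 9 genes as CPM (vertical axes, each from 0) in the 3 KO-labelled libraries (red) and the 3 WT-labelled libraries (grey), with the mean and SD beside the points. The libraries of the 2 labels lie apart in every panel except Sh2d1a, where they overlap.

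Slamf7 (CRACC), a receptor that binds itself and is abundant on cytotoxic lymphocytes, had the smallest p of the members. It stood at 84.3, 85.0 and 84.1 CPM in KO-labelled replicates 1, 2 and 3, against 119, 116 and 119 CPM in WT-labelled ones. The KO-labelled values lay within 1 CPM of each other and all below the lowest WT-labelled value. Their coefficient of variation was 0.564%, where counting alone would give 1.83%, so this closeness is below sampling noise and says little. The mean was 84.4 ± 0.476 CPM in KO-labelled and 118 ± 1.83 CPM in WT-labelled libraries (SD, n = 3 each), or 28.7% lower (log2 fold change -0.49 ± 0.035, SE; edgeR adjusted p = 3.56e-10). In the GRCm38 annotation 9.24% of its exon bases overlap the antisense gene Gm37787, whose reads could not be told apart from its own without strand.

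Cd244a encodes CD244 (2B4), the receptor for CD48 on NK cells and activated T cells. Its level was 61.2, 67.9 and 66.4 CPM in KO-labelled libraries, against 79.5, 81.8 and 81.4 CPM in WT-labelled ones. KO-labelled replicate 1 was the lowest, and the highest KO-labelled value was still under the WT-labelled range. The log2 fold change was -0.31 ± 0.043 (SE; edgeR adjusted p = 1.16e-05). Cd48, the ligand of this receptor and a gene active in most leukocytes, stood at 173, 169 and 177 CPM in KO-labelled libraries, against 216, 217 and 221 CPM in WT-labelled ones. Its labels did not overlap either, with a log2 fold change of -0.33 ± 0.029 (SE; edgeR adjusted p = 8.08e-09). Receptor and ligand were thus lower by similar proportions, 19.4% for Cd244a and 20.6% for Cd48. The ratio of Cd244a to Cd48 counts, which does not depend on scaling between libraries, was 0.354, 0.402 and 0.375 in KO-labelled and 0.368, 0.376 and 0.369 in WT-labelled libraries, ranges that overlap.

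Slamf1 (CD150), which binds itself and gave the family its name, had the largest fold change of the members and a low level. Its counts were 125, 168 and 112 in KO-labelled libraries, against 250, 208 and 229 in WT-labelled ones, or 3.56, 4.69 and 3.22 CPM against 7.03, 5.98 and 6.51 CPM. KO-labelled replicate 2 was the highest of its label and still below every WT-labelled library. Slamf1 was lower by 41.2% (95% interval 26.5% to 52.9%; log2 fold change -0.77 ± 0.155, SE; edgeR adjusted p = 0.000943). The coefficient of variation was 20.2% in KO-labelled libraries, where counting alone would give 8.61%, and 8.03% in WT-labelled ones, where it would give 6.61%.

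Slamf6 (Ly108), another receptor that binds itself, lay on the other side. It had 150, 166 and 128 counts in KO-labelled libraries, against 107, 100 and 128 in WT-labelled ones. KO-labelled replicate 3 and WT-labelled replicate 3 had the same count and nearly the same CPM, 3.68 and 3.64, so the labels were separated by a small margin. The log2 fold change of 0.40 ± 0.177 (SE; 95% interval 0.036 to 0.77) did not pass over all genes (edgeR adjusted p = 0.132). Within each library the ratio of Slamf1 to Slamf6 counts was 0.833, 1.01 and 0.875 in KO-labelled cells, against 2.34, 2.08 and 1.79 in WT-labelled cells, ranges that lie apart. This ratio restates the fall of Slamf1 and the rise of Slamf6, which did not pass, and is no added result.

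Cd84, a self-binding receptor of lymphocytes, platelets and myeloid cells, was the receptor that rose. It stood at 62.0, 66.1 and 59.3 CPM in KO-labelled libraries, against 49.9, 50.4 and 53.7 CPM in WT-labelled ones. The lowest KO-labelled value was above the highest WT-labelled one, and the log2 fold change was 0.28 ± 0.049 (SE; edgeR adjusted p = 0.000152), a gain of 21.7%. The count ratio of Slamf7 to Cd84 was 1.36, 1.29 and 1.42 in KO-labelled libraries and 2.40, 2.31 and 2.22 in WT-labelled libraries. It restates the called fall of Slamf7 and the called rise of Cd84.

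Ly9 (CD229), the most abundant receptor per length, did not pass. Its level was 109, 105 and 109 CPM in KO-labelled libraries, against 113, 111 and 110.4 CPM in WT-labelled ones, values that do not overlap but are close together. The log2 fold change was -0.053 ± 0.034 (SE), with a 95% interval from -0.12 to 0.018 (edgeR adjusted p = 0.339). Over all tested genes, 32.1% had labels that did not overlap, so the separation alone says little; it held for 8 of the 9 members.

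**Figure D2:**
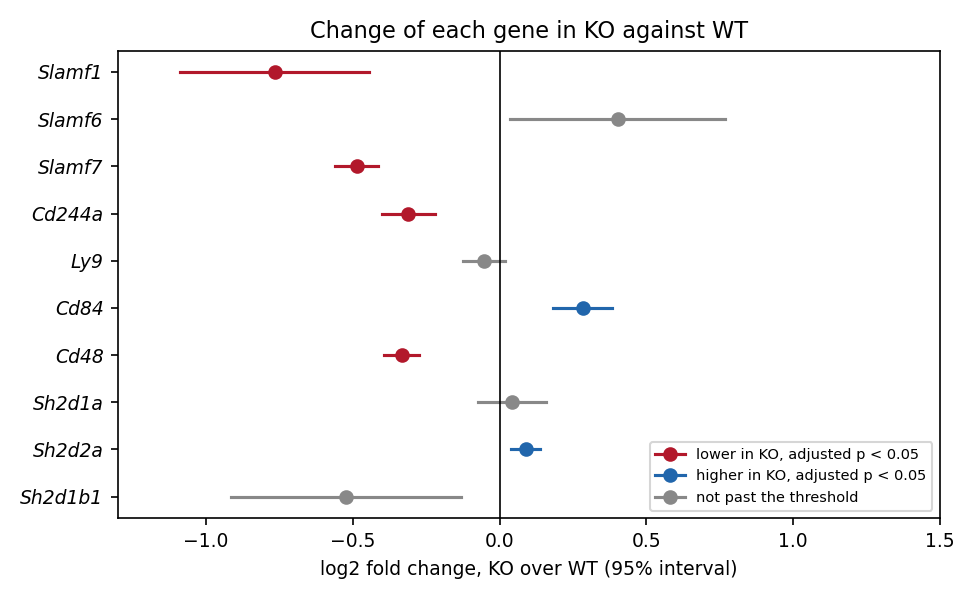
Log2 fold change of KO-labelled over WT-labelled libraries (horizontal axis) for the 9 genes and the related adaptor gene Sh2d1b1, as points with 95% intervals of the edgeR fit. Slamf1, Slamf7, Cd244a and Cd48 lie left of 0, Cd84 and Sh2d2a right of 0, and the grey genes did not pass the threshold.

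The starts of these genes are shown to compare the receptors that moved in opposite directions. RefSeq windows of 300 bases (GRCm38.p6, 250 before and 50 from the gene start) were at hand for 6 of the 9 members. The letters CACGTG, the E-box that factors of the USF class are known to bind, occurred in the window of Cd244a alone, starting 64 bases before the gene start, and in 7.15% of all 32851 windows. TGANTCA, the pattern of AP-1 factors, occurred in Cd244a, Slamf7 and Cd84, and in 7.81% of all windows. So the genes with this pattern include a pair that was lower and another that was higher in KO-labelled cells. Capitals mark these motifs in windows of Cd244a (chr1:171558943-171559242, plus strand), Slamf7 (chr1:171648950-171649249, minus strand) and Cd84 (chr1:171839447-171839746, plus strand).
Cd244a: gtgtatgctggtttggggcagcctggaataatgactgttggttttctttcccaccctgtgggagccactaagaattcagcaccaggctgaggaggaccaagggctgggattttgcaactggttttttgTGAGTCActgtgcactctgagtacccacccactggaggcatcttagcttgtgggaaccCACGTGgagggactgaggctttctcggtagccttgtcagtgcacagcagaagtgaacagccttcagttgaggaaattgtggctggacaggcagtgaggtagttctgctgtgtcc
Slamf7: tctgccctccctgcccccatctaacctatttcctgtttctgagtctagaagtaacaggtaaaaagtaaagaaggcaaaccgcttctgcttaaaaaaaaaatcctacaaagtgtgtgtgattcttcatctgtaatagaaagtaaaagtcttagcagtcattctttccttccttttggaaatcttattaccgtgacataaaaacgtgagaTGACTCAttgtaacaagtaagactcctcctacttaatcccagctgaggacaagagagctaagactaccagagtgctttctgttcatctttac
Cd84: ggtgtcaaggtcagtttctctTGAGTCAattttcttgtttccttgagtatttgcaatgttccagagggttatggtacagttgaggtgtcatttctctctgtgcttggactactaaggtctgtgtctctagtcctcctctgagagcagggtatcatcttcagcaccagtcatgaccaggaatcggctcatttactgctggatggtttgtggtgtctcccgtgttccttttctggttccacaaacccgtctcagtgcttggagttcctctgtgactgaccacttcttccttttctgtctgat

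Both strands were searched for 8 motifs in all. The general E-box CANNTG, which includes CACGTG, was in all 6 members' windows and in 72.3% of all windows. GGAAGT, an ETS core, was in Cd48 alone (23.8% of all windows), and TGTGGT, a RUNX core, in Cd48 and Cd84 (16.8%). TTCNNNGAA and GATAAG, patterns of STAT and GATA factors, and the pattern of interferon regulatory factors were in none of the 6, and in 8.30%, 7.44% and 3.44% of all windows. These are matches of letters in short windows and show no binding.

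Sh2d1a encodes SAP, the adaptor on which most SLAM receptors rely. Its level was 32.2, 32.4 and 31.3 CPM in KO-labelled libraries, against 30.4, 30.3 and 32.5 CPM in WT-labelled ones, and the labels overlapped. The log2 fold change was 0.042 ± 0.056 (SE; edgeR adjusted p = 0.684), and its 95% interval ran from a fall of 5.03% to a gain of 11.6%. In the GRCm38 annotation some exon bases of Sh2d1a overlap the gene Tenm1 on the other strand, whose reads could not be told apart from its own without strand. How far the counted form of Sh2d1a takes in that stretch is not known, since its deposited length of 1039 bases is shorter than the overlap of 1465.

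Sh2d2a encodes TSAd, an SH2-domain adaptor of T cells that binds Lck. It was the most counted member, at 417, 418 and 429.6 CPM in KO-labelled libraries, against 394, 402 and 393 CPM in WT-labelled ones. All KO-labelled values lay above the WT-labelled ones by a narrow margin. The rise was 6.32% (log2 fold change 0.088 ± 0.024, SE; edgeR adjusted p = 0.0121), and the call was lost without WT-labelled replicate 1 (adjusted p = 0.0605) or replicate 3 (adjusted p = 0.0515).

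Among relatives of the members, Sh2d1b1 encodes EAT-2, an adaptor that carries SLAM receptor signals in NK cells and acts with CRACC there. It had 87, 115 and 101 counts in KO-labelled libraries, against 171, 118 and 146 in WT-labelled ones. KO-labelled replicate 2 came close to WT-labelled replicate 2, and the log2 fold change of -0.52 ± 0.188 (SE) did not pass (edgeR adjusted p = 0.0600). Its near copy Sh2d1b2 had at most 3 counts in a library and Slamf8 at most 1, and neither was tested. Reads shared between Sh2d1b1 and Sh2d1b2 could be split or dropped in counting.

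Compared per length as FPKM, the deposited counts over gene length and library total, the order of the members was much the same in both labels. Cd48 led with 113 ± 2.95 FPKM in KO-labelled and 142 ± 1.05 FPKM in WT-labelled libraries (SD, n = 3 each). Next were Sh2d2a, Ly9 and Sh2d1a, at 86.5 ± 1.53, 44.1 ± 0.913 and 30.9 ± 0.563 FPKM in KO-labelled and at 80.8 ± 1.11, 45.4 ± 0.589 and 29.8 ± 1.10 FPKM in WT-labelled libraries. Cd244a and Slamf7 followed, at 15.4 ± 0.798 and 12.3 ± 0.0449 FPKM in KO-labelled and at 19.0 ± 0.246 and 17.2 ± 0.272 FPKM in WT-labelled libraries. Cd84 stood at 9.51 ± 0.501 FPKM in KO-labelled and 7.76 ± 0.295 FPKM in WT-labelled libraries. Slamf6 and Slamf1 were at the foot of the order in KO-labelled libraries, at 1.22 ± 0.138 and 1.07 ± 0.213 FPKM with overlapping ranges. In WT-labelled libraries their order was turned, with Slamf6 at 0.914 ± 0.116 and Slamf1 at 1.81 ± 0.148 FPKM and ranges apart. No other neighbours in the order had overlapping ranges in either label. The order rests on the gene lengths behind the deposited FPKM, which differ from the exon bases of each gene in the GRCm38 annotation (GENCODE). For Sh2d1a the deposited length is 1039 bases and the annotated one 5505. With annotated lengths Sh2d1a stood at 5.83 ± 0.106 FPKM in KO-labelled and 5.62 ± 0.207 FPKM in WT-labelled libraries, below Cd84, and Slamf7 stood above Cd244a. Slamf1 then stood above Slamf6 in both labels, so the turned order of this pair depends on the lengths. Cd48, Sh2d2a and Ly9 led with either set. Fold changes of single genes do not depend on the lengths.

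The make-up of the receptor mRNA shifted accordingly. Summed over the 6 receptors, the level was 83.2, 84.1 and 83.6 FPKM in KO-labelled libraries, against 92.5, 91.5 and 92.2 FPKM in WT-labelled ones. Slamf7 made up 14.7% ± 0.0769 of this sum in KO-labelled and 18.6% ± 0.196 in WT-labelled libraries, and Cd84 made up 11.4% ± 0.563 in KO-labelled and 8.43% ± 0.321 in WT-labelled libraries (SD, n = 3 each). Ly9, whose own level did not pass the test, held 52.7% ± 1.36 in KO-labelled and 49.3% ± 0.568 in WT-labelled libraries. With annotated lengths the Slamf7 share was 24.5% ± 0.141 in KO-labelled and 30.2% ± 0.294 in WT-labelled libraries. Each of the 6 receptors then had shares apart between labels. That says little, since shares are parts of 1 sum and a change of 1 receptor moves the others. Levels of 32.1% of all tested genes lay apart as well. Cd48 counts per Sh2d2a count, a called fall over a called rise, were 0.415, 0.404 and 0.413 in KO-labelled libraries and 0.549, 0.540 and 0.561 in WT-labelled libraries. This ratio restates those calls, mostly that of Cd48, and Sh2d1a, the other adaptor gene, did not pass.

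**Figure D3:**
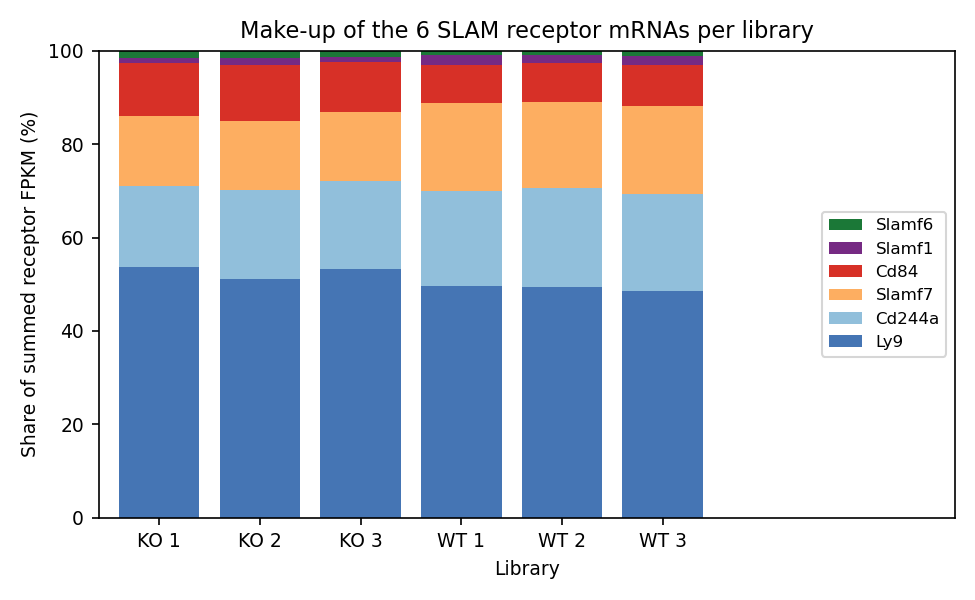
Share of each SLAM receptor in the summed FPKM of the 6 receptors (vertical axis, percent), 1 bar per library. The orange segment, Slamf7, is near 14.7% in the KO-labelled bars and 18.6% in the WT-labelled bars, while the red segment, Cd84, is near 11.4% in the KO-labelled and 8.43% in the WT-labelled bars.

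All 6 receptor genes and Cd48 lie next to each other on chromosome 1, while Sh2d2a is on chromosome 3 and Sh2d1a on chromosome X (RefSeq, GRCm38.p6). In chromosomal order Cd244a, Ly9, Slamf7, Cd48 and Slamf1 had log2 fold changes of -0.31, -0.053, -0.49, -0.33 and -0.77, and the last of the row, Cd84 and Slamf6, had 0.28 and 0.40. Fold changes at or below 0 thus filled the first stretch of the cluster and those above 0 its far end, a pattern seen after the values were known and not tested. The genes flanking the cluster, with Tma7-ps inside it, were the neighbours compared. Of 9 tested neighbours, 1 passed (11.1%, beside 17.3% of all tested genes): Arhgap30, which encodes a GTPase-activating protein, stood at 391 ± 3.60 CPM in KO-labelled and 421 ± 3.46 CPM in WT-labelled libraries (SD, n = 3 each; log2 fold change -0.11; edgeR adjusted p = 0.00179). Usf1, a relative of Usf3 that lies on the same side as Arhgap30, had a log2 fold change of -0.080 ± 0.054 (SE; edgeR adjusted p = 0.355). Ncstn, Copa and Pex19, on the side of Slamf6, had 0.0058, 0.041 and 0.013, none of which passed (edgeR adjusted p = 0.950, 0.267 and 0.907). Tma7-ps, at 0.048, resembles another gene in sequence, so its count is uncertain.

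**Figure D4:**
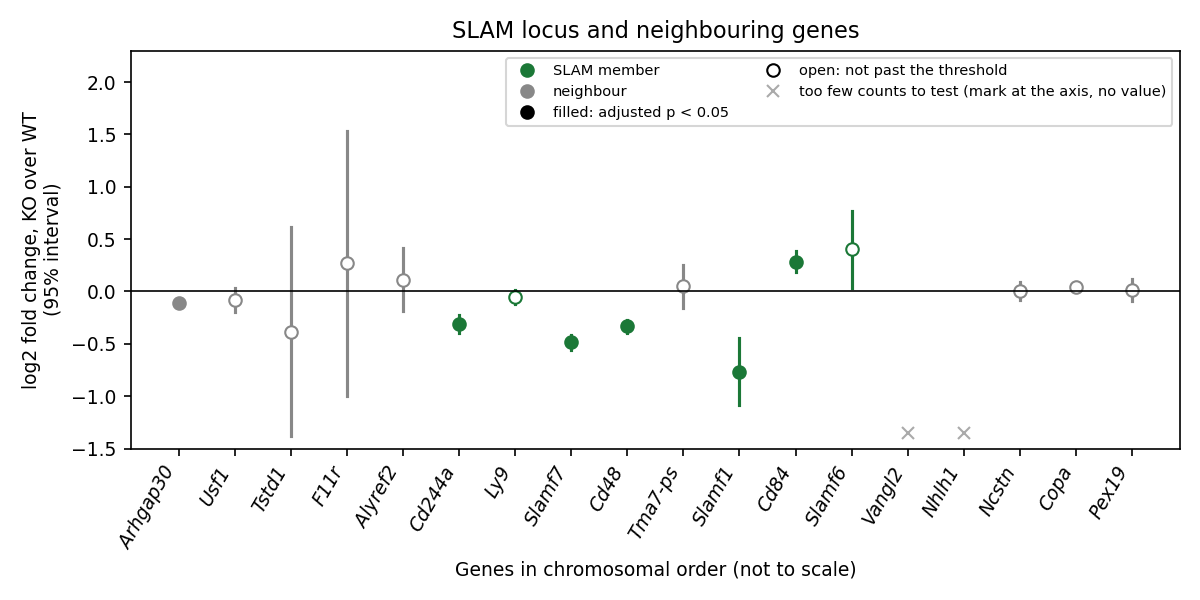
Log2 fold change of KO-labelled over WT-labelled libraries (vertical axis, with 95% intervals) for the SLAM genes (green) and their neighbours (grey) in chromosomal order, not to scale. Filled points passed the threshold: 5 SLAM genes, among them Slamf7 at -0.49 and Cd84 at 0.28, and the neighbour Arhgap30 at -0.11. Vangl2 and Nhlh1 had too few counts to be tested.

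Signalling genes downstream of the receptors were mostly near 0. All 30 partner genes were tested: KO-labelled libraries had 8 at a lower and 3 at a higher level, and 19 did not pass, with a median log2 fold change of -0.042. That is 36.7% of the list, beside 24.3% of all tested genes at 30 CPM or more, the level of every partner. Fyn, the kinase that SAP brings to the receptors, stood at 297 ± 9.41 CPM in KO-labelled and 287 ± 2.23 CPM in WT-labelled libraries (SD, n = 3 each; log2 fold change 0.050; edgeR adjusted p = 0.238), and Lck, which acts beside it, did not pass either at -0.054 (edgeR adjusted p = 0.112).

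Plcg2, a phospholipase gene, had the largest fall of the partner list. It was at 61.1, 61.0 and 60.4 CPM in KO-labelled libraries, against 80.5, 79.7 and 77.0 CPM in WT-labelled ones (log2 fold change -0.38 ± 0.040, SE; edgeR adjusted p = 2.06e-07). All KO-labelled values lay below the WT-labelled ones.

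SAP and Fyn are known to act on NF-κB. Malt1 and Nfkb1, which encode a protease of the NF-κB route and a subunit of the factor, fell by 0.25 and 0.19 on the log2 scale (edgeR adjusted p = 1.51e-06 and 2.90e-06). Prkcq, a kinase gene, and Bcl10, an adaptor gene of the same route, did not pass, at -0.079 and 0.013. The adaptor genes Lcp2 (SLP-76) and Grap2 (GADS) fell by 0.15 each (edgeR adjusted p = 0.000326 and 7.83e-05). Ptpn6 encodes SHP-1, a phosphatase that SLAM receptors can recruit. It rose by 0.22 ± 0.027 (SE; edgeR adjusted p = 1.42e-06), while Inpp5d (SHIP-1) and Ptpn11 (SHP-2), which can be recruited likewise, did not pass at -0.048 and 0.057. Cd2, whose product also binds CD48 in the mouse, was at 165 ± 5.83 CPM in KO-labelled and 177 ± 4.60 CPM in WT-labelled libraries (SD, n = 3 each; log2 fold change -0.095; edgeR adjusted p = 0.0462). This call was lost in 13 of 18 alternatives, with adjusted p from 0.00626 to 0.241 over all of them.

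**Figure D5:**
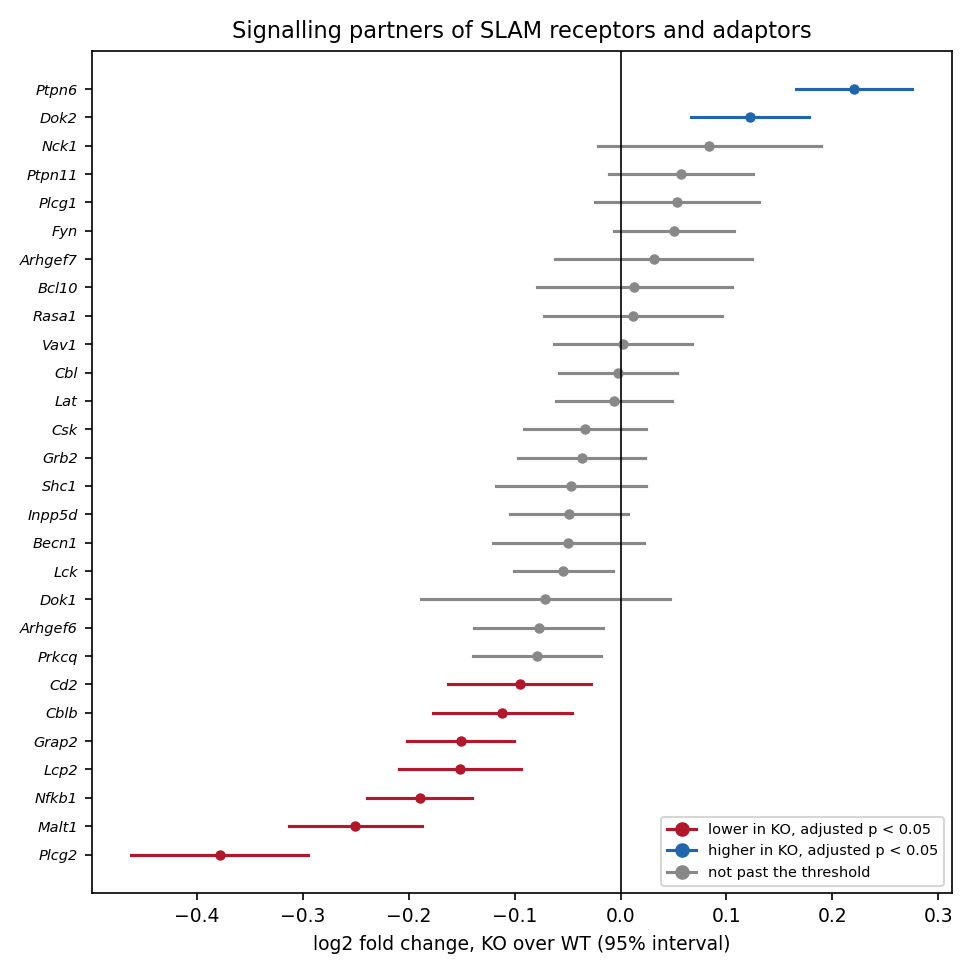
Log2 fold change of KO-labelled over WT-labelled libraries (horizontal axis, with 95% intervals) for 28 of the 30 signalling partners, sorted by value. The 7 red genes were lower and the 2 blue genes higher at an adjusted p under 0.05, and all lie between -0.38 and 0.22.

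Genes of innate-like T cell programmes that depend on SAP in other settings were mixed. Of 12 listed, 9 were tested, with 3 higher, 2 lower and 4 not past the threshold. Thus 55.6% of those tested passed, beside 17.3% of all tested genes and 20.8% of those with a mean of at least 3 CPM. The list is short and was chosen with earlier results known. Il13 and Ifng, the genes of the type 2 and type 1 effector cytokines, rose by 1.97 and 0.25 on the log2 scale, and Icos, a costimulatory receptor gene, by 0.18 (edgeR adjusted p = 1.49e-08, 5.55e-05 and 0.000861). Egr2, a factor induced by antigen receptor signals, and Tbx21, the type 1 factor T-bet, fell by 0.86 and 0.51 (edgeR adjusted p = 8.48e-10 and 1.95e-07). Zbtb16, which encodes PLZF, the factor of SAP-dependent NKT and γδ T cells, had 25, 26 and 40 counts in KO-labelled libraries, against 7, 21 and 15 in WT-labelled ones. It did not pass (log2 fold change 1.07 ± 0.435, SE; edgeR adjusted p = 0.0997). Il17a was not tested, with 2, 5 and 4 counts in KO-labelled and 9, 14 and 26 in WT-labelled libraries.

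Markers of other cells that use SLAM genes were mostly scarce. Among the NK cell markers Ncr1 and Klra7 were lower, at 0.965 ± 0.265 and 1.17 ± 0.0799 CPM in KO-labelled and 1.85 ± 0.470 and 2.50 ± 0.149 CPM in WT-labelled libraries (SD, n = 3 each; edgeR adjusted p = 0.0398 and 0.00304). The call of Ncr1 was lost without KO-labelled replicate 1 (adjusted p = 0.176), WT-labelled replicate 1 (0.222) or WT-labelled replicate 2 (0.106), and with the replicate number as a block (0.0788). Klrb1c, the most abundant of that list, did not pass. All 6 NK markers summed to 87.4 to 90.6 CPM in KO-labelled and 88.5 to 94.2 CPM in WT-labelled libraries. The 10 B cell markers summed to 5.95 to 7.91 CPM in KO-labelled and 6.88 to 7.27 CPM in WT-labelled libraries, and the 8 monocyte and macrophage markers to 6.03 to 6.71 CPM in KO-labelled and 7.28 to 9.92 CPM in WT-labelled libraries, nearly all of it Cd68, which was lower in KO-labelled libraries (edgeR adjusted p = 0.0179, but 0.130 without WT-labelled replicate 2 and 0.0734 without WT-labelled replicate 3). The other monocyte and macrophage markers had at most 14 counts in a library and were not tested. By mean, Csf1r, Cd14, Vcam1 and Lyz2 were lower and Adgre1, C1qa and C1qb higher in KO-labelled libraries. Such counts are too low to compare. Dendritic cell markers summed to 4.83 to 6.69 CPM in KO-labelled and 5.03 to 6.32 CPM in WT-labelled libraries. Basophil and mast cell markers summed to 2.07 to 2.90 CPM in KO-labelled and 1.71 to 2.27 CPM in WT-labelled libraries. Red cell and platelet markers were at 1.28 to 1.73 CPM in KO-labelled and 0.891 to 0.984 CPM in WT-labelled libraries, ranges that lie apart. Neutrophil markers reached at most 0.144 CPM in any library. No tested gene of the B cell, dendritic cell, basophil and mast cell, or red cell and platelet lists passed. The neutrophil markers with a row were not tested. The part of all these cells in the falls of Slamf7, Cd244a and Cd48 and in the rise of Cd84 was not tested.

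The CD8 genes, which γδ T cells can also express, moved apart from each other. Cd8a stood at 86.9 ± 2.41 CPM in KO-labelled and 66.1 ± 0.527 CPM in WT-labelled libraries (SD, n = 3 each; log2 fold change 0.40; edgeR adjusted p = 7.51e-08), while Cd8b1 did not pass at -0.021. Of the γδ-associated genes with a row, Blk was lower (log2 fold change -1.15 ± 0.242, SE; edgeR adjusted p = 0.00133), and Sox13 did not pass at -0.43 (edgeR adjusted p = 0.102). Their part in the changes of the SLAM genes was not tested.

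The genes most like Slamf7 over the 6 libraries were sought among 8438 genes with a mean of at least 10 CPM, by Pearson's r of log2 CPM. They were Lrrc8c, a subunit gene of volume-regulated anion channels, Ifngr1, an interferon-γ receptor gene, and Spry2, a feedback inhibitor of the Ras pathway, with r = 0.9995, 0.9995 and 0.9994. For Cd48 they were Gpr15, a homing receptor gene, Tap2, a peptide transporter of antigen presentation, and Irgm1, an interferon-inducible GTPase, with r between 0.998 and 0.999. All 6 were lower in KO-labelled libraries, with log2 fold changes from -0.21 for Tap2 to -0.72 for Spry2. The points fall into the 2 labels, so such values describe a shared difference between labels and little else.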

How the data were processed

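Splenic γδ T cell RNA was extracted with TRIzol and libraries came from a VAHTS Universal V6 kit, according to the labels. The submitters' processing notes name fastp, HISAT2, HTSeq and GRCm39, with no versions, settings, annotation or strand use. The deposited counts are whole numbers per gene symbol. The deposited FPKM are those counts over the column total and 1 fixed length per gene, and served for levels between genes and as an alternative scale.

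Counts were tested with edgeR 4.0.16 (R 4.3.3): filterByExpr by label, TMM scaling, glmQLFit and glmQLFTest, Benjamini-Hochberg adjustment over 12810 genes, threshold 0.05, 95% intervals from the fit. CPM are counts over TMM-scaled totals. The script was tested on simulated data, in which the share of false calls varied with the random draw and could lie above the nominal 0.05. Calls close to the threshold can thus be less secure than their adjusted p states. Alternatives used limma 3.58.1, DESeq2 1.42.0, other scalings, filters, pseudocounts and thresholds, annotated gene lengths (added after seeing the data), the replicate number as a block, and each library left out. Nothing says that replicates are separate animals, so p-values measure the spread between these libraries, which may be technical; between replicates of 1 label, chi-square over its degrees of freedom was 3.22 to 6.94, above sampling noise.

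The members, the lists and the rules were chosen with earlier results of these data known. Named were all members and relatives, the 8 partners and 5 programme genes with the smallest p among those called, called neighbours, and the 3 genes most like each of Slamf7 and Cd48. Of the partners, 2 are counted but not reported here by name. Fyn, Lck, Prkcq, Bcl10, Inpp5d, Ptpn11, Cd2, Zbtb16, Il17a, the neighbours that did not pass and the markers named were added after their values were seen. Promoter sequences are from RefSeq (GRCm38.p6). GRCm38 annotation served only for names, gene order, overlaps and the annotated gene lengths.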

Additional observations from a re-analysis of the deposited data

How the results depend on the processing

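The 9 members kept their direction under all 18 alternatives, and 8 of them their side of the threshold; Sh2d2a lost its call in 3 (without WT-labelled replicate 1 or 3, and at an adjusted p under 0.01, with the fold change unchanged). The count of members passing was 5 or 6 throughout. Slamf1 ranged from -0.94 to -0.44 on the log2 scale; the value nearest 0 came from log2(FPKM + 1), where the pseudocount is about as large as the level itself. The number of partners passing was 9 to 13, against 11, with 6 to 10 lower and 3 higher in each. Among partners that did not pass, Prkcq passed in 2 alternatives and Lck in 1, both without KO-labelled replicate 3 (adjusted p = 0.0162 and 0.0434). Sh2d1b1 passed in 4 alternatives, with adjusted p from 0.0305 to 0.263 over all of them. The number of genes passing was 1383 at an adjusted p under 0.01, against 2219, and ran from 1660 to 2256 with a library left out. With the replicate number as a block 1969 genes passed, and no member's call changed; Cd2 and Ncr1 lost theirs (adjusted p = 0.0849 and 0.0788). The numbers were not taken as pairs: deviations of same-numbered libraries correlated at 0.048, -0.044 and -0.072. Low counts limit Slamf1, Slamf6, Sh2d1b1 and Zbtb16.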
